A study of Homo sapiens with 9 samples.

Results

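The regions described here were accessible, as called by the authors, in both lists labelled DMSO and in neither list labelled rottlerin. They were defined by merging the deposited peaks of 4 FAIRE-seq libraries and selected on the presence of a peak in the lists labelled NS DMSO and SW DMSO and on its absence from the lists labelled NS rottlerin and SW rottlerin. On chromosomes 1 to 22, X and Y this gave 514 of 40703 merged regions, or 1.26% of all and 4.10% of the 12550 regions with a peak in both DMSO-labelled lists. The number rested on the length of the lists, as it was 1123 when each list held its 18977 highest-scoring peaks and 224 with the upper 50% of each. The presence of peaks chose them, so these shares and the peak heights are a description and were not tested.

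FAIRE (formaldehyde-assisted isolation of regulatory elements) recovers DNA that is not bound by nucleosomes from fixed and sonicated chromatin, and was applied to Jurkat cells of clone E6-1, a human T cell leukaemia line. Cells were non-stimulated (NS) or, by the labels, stimulated with PMA and ionomycin for 4 h, washed and cultured for 1 day (SW, stimulus withdrawal), after DMSO as the vehicle or 15 μM rottlerin, a PKC inhibitor, for 1 h. The paper's methods give a shorter stimulation than the labels do. Of 9 samples, these 4 groups have a peak list, each from 1 library of 1 cell line, and 5 were not analysed here. Labels and methods do not match, since the methods call peaks on DMSO samples (NS, ST, SW and RS) only. The paper's pooled set from those 4 DMSO samples has 40731 regions, of which 40703 were kept. Both totals were also obtained from the 4 lists used here, as they would be if these were the DMSO lists. The lists named rottlerin here may therefore hold ST or RS cells, and the list named SW may hold another stimulated state. Which sample each list holds was not tested. No direction is given for rottlerin, and the 514 regions should not be read as regions lost under it.

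In T cells, PMA activates protein kinase C and ionomycin raises intracellular calcium, which together stand in for engagement of the T cell receptor. AP1, a dimer of FOS and JUN proteins, and NFAT carry these signals to chromatin. E proteins such as TCF3 and TCF12 bind E-boxes, where they can pair with TAL1 or be displaced by ZEB factors, and RUNX1, GATA3 and ETS1 are further regulators of T cell identity that bind enhancers in T lymphocytes and in T cell leukaemia.

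The 4 lists held between 18977 and 30409 peaks, with the fewest in the list labelled NS DMSO. A peak's score is 10 times the −log10 of its q-value without decimals, and the median score was 57 and 54 in the lists labelled NS DMSO and SW DMSO. Sequencing depth is unknown from peak lists, so a missing peak means only that none was called at the depth of that library. With 1 library per list, no spread between replicates could be measured. Of 10 T cell markers such as CD3E and LCK, between 7 and 8 had a peak within 1 kb of a transcription start site (TSS) in each list, while at most 1 of 6 B cell, 1 of 6 myeloid and 1 of 4 epithelial markers and no erythroid marker had one. Ranges given after shares are 95% Wilson intervals and hold counting error only.

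Sequences of 6 of the named regions are shown because they hold the E-boxes, RUNX and AP1 motifs that are counted further on. Each run is the central 300 bp of a region on the plus strand of Hg19 (GRCh37). It is named by a gene with a TSS within 50 kb, which need not be the nearest gene or the one it lies in. Capitals mark CACCTG or CAGCTG E-boxes, the RUNX motif TGTGGT and the AP1 motifs TGACTCA and TGAGTCA on either strand (CAGGTG and ACCACA are the reverse complements of CACCTG and TGTGGT).
KLF2, chr19:16441245-16441544: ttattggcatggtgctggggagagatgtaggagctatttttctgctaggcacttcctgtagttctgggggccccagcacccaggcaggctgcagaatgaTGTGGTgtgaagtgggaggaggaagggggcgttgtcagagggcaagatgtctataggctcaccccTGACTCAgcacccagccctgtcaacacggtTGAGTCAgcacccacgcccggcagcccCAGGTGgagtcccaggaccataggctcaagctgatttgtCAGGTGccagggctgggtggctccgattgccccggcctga
TRAF3, chr14:103415557-103415856: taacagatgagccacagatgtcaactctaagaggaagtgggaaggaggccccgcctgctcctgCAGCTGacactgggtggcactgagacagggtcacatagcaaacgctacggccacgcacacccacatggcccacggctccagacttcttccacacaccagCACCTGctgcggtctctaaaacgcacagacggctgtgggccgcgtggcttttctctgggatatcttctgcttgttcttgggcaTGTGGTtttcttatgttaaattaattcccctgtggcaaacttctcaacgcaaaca
LEF1, chr4:108957433-108957732: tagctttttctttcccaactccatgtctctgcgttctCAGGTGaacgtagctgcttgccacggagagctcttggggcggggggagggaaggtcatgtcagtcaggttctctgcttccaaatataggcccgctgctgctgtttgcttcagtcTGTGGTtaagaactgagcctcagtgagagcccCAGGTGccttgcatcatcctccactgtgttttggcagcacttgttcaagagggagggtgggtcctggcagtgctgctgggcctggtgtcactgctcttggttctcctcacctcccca
TMEM63A, chr1:226067554-226067853: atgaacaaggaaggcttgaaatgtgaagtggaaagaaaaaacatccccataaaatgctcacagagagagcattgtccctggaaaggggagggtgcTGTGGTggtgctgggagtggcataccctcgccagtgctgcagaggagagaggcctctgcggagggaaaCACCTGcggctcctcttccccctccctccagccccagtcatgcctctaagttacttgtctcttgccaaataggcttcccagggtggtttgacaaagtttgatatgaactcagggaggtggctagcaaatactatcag
WBP2, chr17:73860594-73860893: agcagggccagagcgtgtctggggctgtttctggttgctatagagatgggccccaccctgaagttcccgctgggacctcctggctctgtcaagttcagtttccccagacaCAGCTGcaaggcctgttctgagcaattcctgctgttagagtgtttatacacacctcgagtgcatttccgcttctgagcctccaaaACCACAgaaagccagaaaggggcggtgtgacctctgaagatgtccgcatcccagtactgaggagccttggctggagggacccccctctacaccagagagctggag
ID3, chr1:23855110-23855409: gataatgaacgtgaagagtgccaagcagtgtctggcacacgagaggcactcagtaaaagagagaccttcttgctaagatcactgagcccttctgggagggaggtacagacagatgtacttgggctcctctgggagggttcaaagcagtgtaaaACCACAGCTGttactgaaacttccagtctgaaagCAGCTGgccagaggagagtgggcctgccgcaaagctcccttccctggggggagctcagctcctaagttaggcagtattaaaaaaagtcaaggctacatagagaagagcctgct

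The KLF2 region holds 2 AP1 motifs, 1 RUNX motif and 2 CACCTG E-boxes. Those near LEF1 and TMEM63A hold the RUNX motif with CACCTG, the one near WBP2 holds it with CAGCTG, and the one near TRAF3 holds it with both E-boxes. In the ID3 sequence, the RUNX motif runs into the first of 2 CAGCTG E-boxes.

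Peaks of the 514 regions were low, and were lower in the list labelled SW DMSO. In the list labelled NS DMSO, their scores ran from 11 to 185 with a median of 45 (quartiles 31 and 66). Scores in the list labelled SW DMSO ran from 11 to 116 with a median of 33 (quartiles 23 and 46). Over all 12550 regions with a peak in both lists, the medians were 75 and 71. Median fold enrichment over the total input was 3.95 and 3.62 in the NS DMSO and SW DMSO lists, against 4.35 and 4.26 over the 12550 regions.

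The score was higher in the SW DMSO list for 166 of the 514 regions (32.3%, 28.4–36.5), against 43.2% of the 12550 regions. It was higher in the NS DMSO list for 341 (66.3%) and equal for 7. The fold enrichment was at least 1.5 times higher in the NS DMSO list for 31 regions (6.03%, 4.28–8.43) and at least 1.5 times higher in the SW DMSO list for 3 (0.584%, 0.199–1.70). Over all regions with both peaks, these shares were 2.18% and 1.67%. Most of the 514 regions thus had peaks of similar enrichment in both lists, with the larger differences mainly toward NS.

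**Figure D1:**
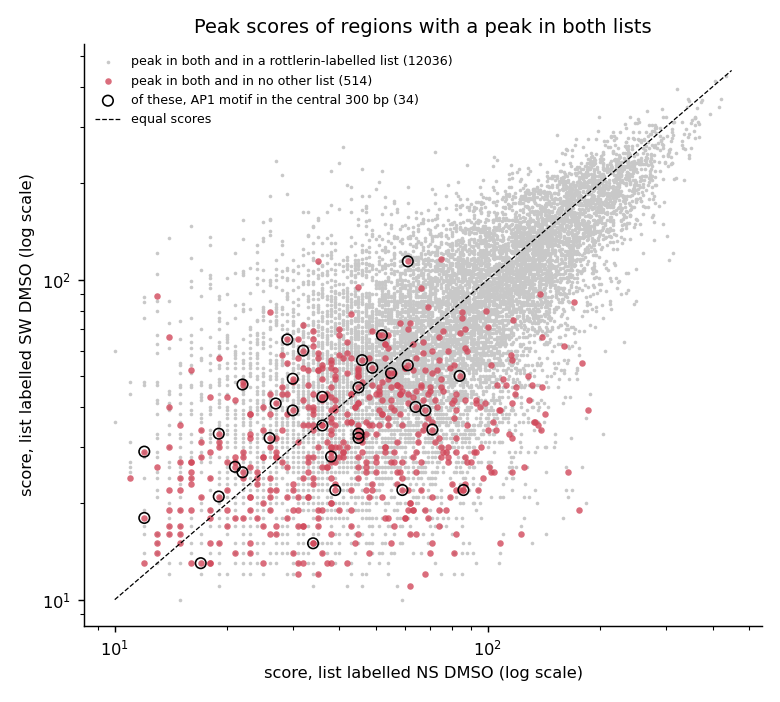
Each point is a merged region with a peak in both DMSO-labelled lists, by its score in the list labelled NS DMSO (x, log scale) and SW DMSO (y, log scale). The 514 regions without a peak in the other lists (red) lie low among the 12036 that have one (grey), with more of them below the line of equal scores than above it, and circles mark the 34 with an AP1 motif.

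At the threshold of the rule, the lowest score inside it was 11, in 2 regions, and both scores lay in the lowest 10% of their lists in 30. Just outside it, 186 regions with both DMSO-labelled peaks were left out only by rottlerin-labelled peaks in the lowest 10% of their list, and had median scores of 37 and 26 in the NS DMSO and SW DMSO lists. The nearest peak of either rottlerin-labelled list lay at a median of 12.7 kb, and within 1 kb for 22 regions (4.28%).

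Peaks of both lists lay on the same stretch of DNA. Each of the 514 regions was made of 1 peak from each list, the median overlap was 179 bp and the mid-points lay 27.5 bp apart at the median. In 439 regions (85.4%) the overlap covered at least 50% of the longer peak, and in 1 region the peaks touched without overlapping. The merged regions had a median width of 270 bp (167 to 1766 bp).

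The regions were spread over 23 chromosomes, with 54 on chromosome 1, 8 on X and none of the 18 merged regions on Y. Clusters were rare, since another of the 514 regions lay within 10 kb for only 12 of them.

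Most of the regions lay away from promoters. A mid-point in a UTR, exon or intron was counted there first, then as promoter if it lay up to 1 kb before a TSS, then as upstream up to 10 kb before one, and otherwise as intergenic. Introns held 315 regions (61.3%) and intergenic sequence 92 (17.9%), together 79.2% (75.5–82.5) against 70.0% of all merged regions. Their joint share was also high in the NS DMSO list alone (80.8%) and the SW DMSO list alone (82.5%). It was 76.5% in the NS DMSO and NS rottlerin lists only and 74.4% in the NS DMSO and SW rottlerin lists only. Promoters held 13 (2.53%, 1.48–4.28) against 9.07% of all, a level close to the 2.23% (1.77–2.80) of regions in the NS DMSO list alone and below the 6.36% of regions in the NS DMSO and SW rottlerin lists only. A further 41 regions (7.98%) were upstream, 25 in other exons, 22 in 3′UTRs (4.28%, against 2.27% of all) and 6 in 5′UTRs.

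**Figure D2:**
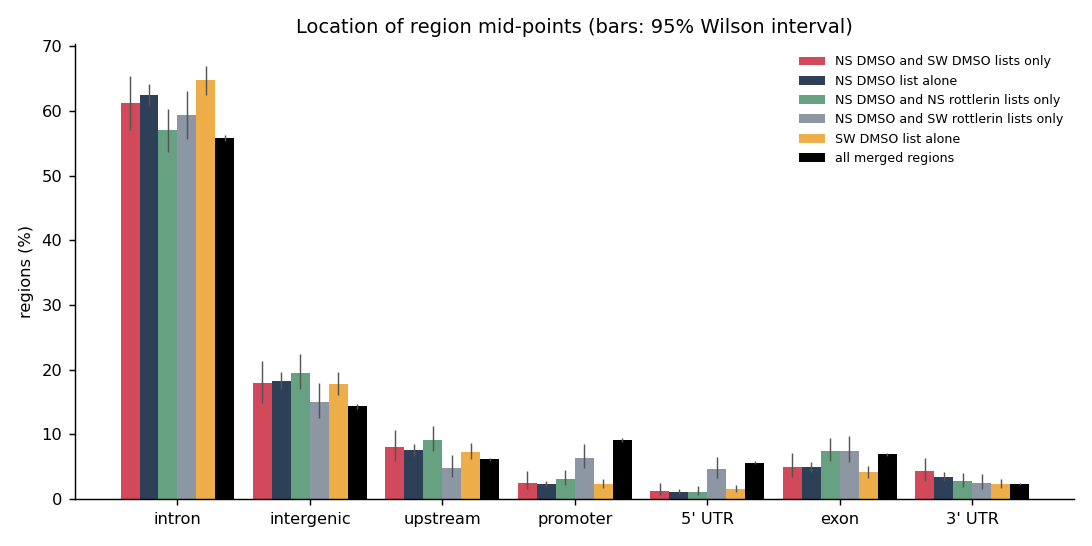
Share of regions (y, percent) by location of the mid-point, for regions with a peak in the named lists only and for all merged regions, with 95% Wilson intervals. Regions of both DMSO-labelled lists (red) had more introns and intergenic sequence (79.2% against 70.0%) and fewer promoters (2.53% against 9.07%) than all merged regions (black).

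The median distance to any TSS was 5.78 kb against 4.34 kb for all merged regions, and 85 regions (16.5%, 13.6–20) lay within 1 kb of one, against 32.0%. GC content of the central 300 bp had a median of 44.5% against 46.3%. Only 23 regions (4.47%, 3.00–6.62) resembled a CpG island, with GC content over 50% and a ratio of observed to expected CpG over 0.6, against 21% of all.

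E-boxes and RUNX motifs were frequent in the 514 regions. The RUNX motif TGTGGT was found in the central 300 bp of 253 regions (49.2%, 44.9–53.5), against 32.8% of all merged regions, and 85 regions (16.5%) held 2 or more copies, against 7.26%. The E-box CACCTG was found in 194 (37.7%, 33.7–42.0) against 21.4%. Its variants CAGCTG and CATCTG were found in 24.5% (21–28.4) and 28.6% (24.9–32.7), against 17.1% and 21.4%. At least 1 of these 3 E-boxes was present in 321 regions (62.5%), against 48.0%, and CACCTG occurred together with RUNX in 99 (19.3%, 16.1–22.9), against 7.26%.

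Both motifs lay at the centre of the regions. In windows of the same 300 bp centred 1 kb before and after the mid-points, RUNX motifs were found in 20.1% (17.8–22.7) and CACCTG in 24.8% (22.3–27.5), so that the centres held both more often than their own flanks. Over all merged regions, the flanks held RUNX motifs in 19.4% and CACCTG in 25.5%, which for CACCTG is more than the 21.4% at their centres. CAGCTG was found in 13.2% and CATCTG in 19.1% of the flanks of the 514 regions.

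**Figure D3:**
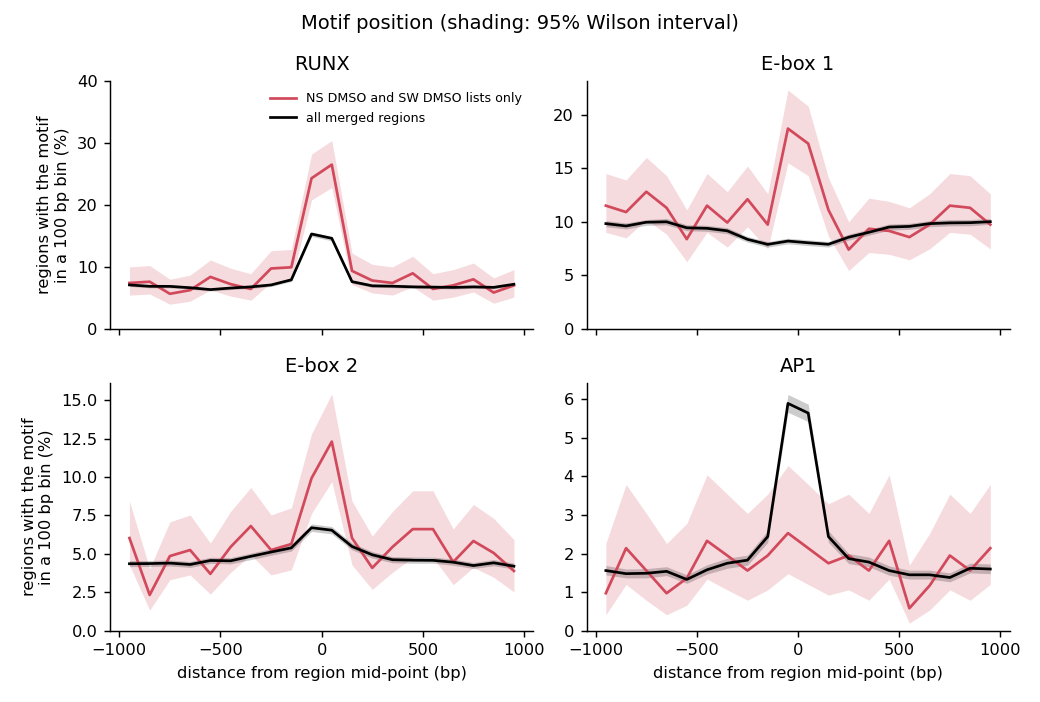
Share of regions with a motif (y, percent) in bins of 100 bp by distance from the mid-point (x, bp), for RUNX, E-box 1 (CACCTG), E-box 2 (CAGCTG) and AP1, with 95% Wilson intervals as shading. RUNX and both E-boxes rise toward the centre of the 514 regions (red). In all merged regions (black), RUNX, CAGCTG and AP1 also rise toward the centre, and CACCTG does not. AP1 stays low in the 514.

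AP1 motifs were scarce. They were found in 34 regions (6.61%, 4.77–9.10), close to the 5.06% (3.88–6.57) of their flanks, against 13.2% of all merged regions. ETS motifs of the CCGGAA form were found in 25 (4.86%, 3.32–7.08) against 10.5%, and those of the CAGGAAG form in 66 (12.8%, 10.2–16.0) against 18.9%. SP1 motifs (GGGCGGG), which are common at CpG-rich promoters, were found in 6.42% (4.61–8.88) against 15.5%. GATA motifs (AGATAA or TGATAA) were found in 28.0% (24.3–32.0) against 31.5%, and in 29.3% of the flanks. NFAT (TGGAAA) was found in 24.7% (21.2–28.6) against 27.9%, CTCF (CCANNAGGG or CCANNAGAG) in 12.8% (10.2–16.0) against 11.8%, and TCF/LEF (ATCAAAG) in 7% (5.10–9.54) against 6.61%. E-box, RUNX and GATA motifs were found together in 33 regions (6.42%, 4.61–8.88), against 5.81%. Some of these comparisons changed away from TSSs. More than 1 kb from any TSS (429 regions), CCGGAA was found in 3.96% against 4.88% of all merged regions there, and SP1 in 3.96% against 4.23%. CAGGAAG stayed lower (11.4% against 20.7%). GATA and NFAT were then also lower, at 29.1% against 39.2% and 24.5% against 31.9%. TCF/LEF changed sides there, at 6.99% against 8.32%.

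RUNX and CACCTG shares were near those of regions called in the NS DMSO list alone. Among those 3187 regions, RUNX motifs were found in 46.3% (44.6–48.0), CACCTG in 39.8% (38.1–41.5) and AP1 in 2.67% (2.16–3.29), the last below the interval of the 514 regions. In the 1759 regions of the SW DMSO list alone, by contrast, RUNX motifs were found in 30.9% (28.8–33.1), CACCTG in 23.9% (22–26.0) and AP1 in 27.9% (25.8–30). The AP1 share of the 514 regions therefore lay between those of both groups called in 1 DMSO-labelled list, while the intervals of their RUNX and CACCTG shares overlapped those of the NS DMSO list alone. Regions of the NS DMSO list with only the NS rottlerin or only the SW rottlerin list held AP1 in 2.96% (2.01–4.34) and 4.09% (2.83–5.89). Both lie below the 6.61% of the 514 regions.

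Regions that shared the NS DMSO list with 1 rottlerin-labelled list resembled the 514 regions in some motifs and not in others. With the NS rottlerin list only (844 regions), at least 1 of the 3 E-boxes was found in 61.3% (57.9–64.5) and RUNX in 43.6% (40.3–47.0). CACCTG was found in 31.9% (28.8–35.1), and these intervals overlap those of the 514 regions. The RUNX and CACCTG shares themselves were lower than the intervals of the 514 regions (44.9–53.5 and 33.7–42.0). In the same 844 regions, the CAGGAAG form of the ETS motif was found in 25.1% (22.3–28.2), against 12.8% (10.2–16.0) of the 514 regions. With the SW rottlerin list only (660 regions), RUNX motifs were found in 37.1% (33.5–40.9), CACCTG in 27.4% (24.2–31.0) and NFAT in 33.3% (29.8–37.0). The CAGGAAG interval of the former group and the RUNX, CACCTG and NFAT intervals of the latter do not overlap those of the 514 regions.

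**Figure D4:**
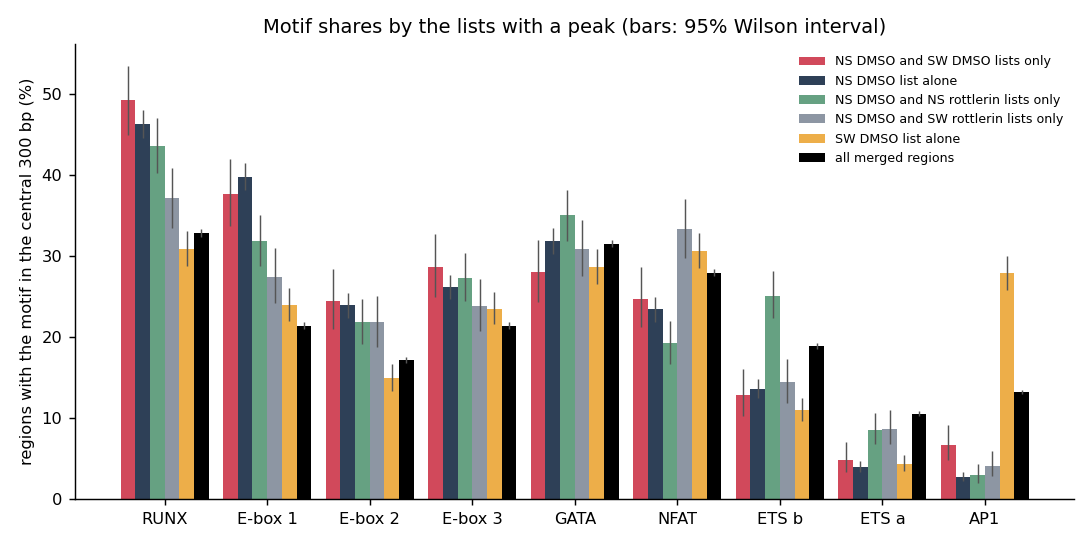
Share of regions with each motif in the central 300 bp (y, percent), by the lists with a peak, with 95% Wilson intervals. E-box 1 is CACCTG, E-box 2 is CAGCTG and E-box 3 is CATCTG, while ETS a is the CCGGAA form and ETS b the other. Regions of both DMSO-labelled lists only (red) lie near those of the NS DMSO list alone (dark blue) for RUNX and the E-boxes, and far below those of the SW DMSO list alone (yellow) for AP1.

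Motifs also differed with the list in which a region's score was higher. The 194 regions with CACCTG had median scores of 53 in the NS DMSO list and 34 in the SW DMSO list, and 22.2% of them scored higher in the SW DMSO list. Without CACCTG, the medians were 39 and 31, and 38.4% of 320 regions scored higher there. The 34 regions with AP1 had a median of 37 in both lists, and 55.9% scored higher in the SW DMSO list, against 30.6% of the 480 without it. Seen from the scores, AP1 was found in 11.4% (7.45–17.2) of the 166 regions higher in the SW DMSO list and in 4.40% (2.68–7.13) of the 341 higher in the NS DMSO list, and CACCTG in 25.9% (19.8–33.1) and 43.7% (38.5–49.0). Median GC content was 48.3% with and 42.0% without CACCTG, and its part in these differences was not tested. The same split by score was not made over all regions with a peak in both DMSO-labelled lists. Whether these differences are particular to the regions described here was therefore not tested.

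The strongest regions were ranked by the lower of their scores, and 20 were named with the nearest protein-coding TSS. Of these, 4 scored higher in the SW DMSO list and 1 had equal scores, 10 held a RUNX motif, 12 an E-box and none an AP1 motif. First was a region in a 3′UTR of the annotation (chr3:195964020-195964449). It lay within both PCYT1A, an enzyme of phosphatidylcholine synthesis, and SLC51A, a bile acid transporter subunit with the nearest coding TSS at 7.36 kb. This region scored 138 in the NS DMSO list and 90 in the SW DMSO list. A region of ETV6, an ETS family repressor that is rearranged in leukaemia, scored 170 and 85 (chr12:12047850-12048210, 9.16 kb downstream of a TSS and in a 3′UTR of the annotation).

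The region with the highest SW DMSO score lay in an intron of STIM1, the calcium sensor of the endoplasmic reticulum that opens calcium entry after receptor engagement (chr11:3990831-3991147). It scored 75 in the NS DMSO list and 116 in the SW DMSO list, with fold enrichments of 4.77 and 5.85, and its central 300 bp held 2 RUNX and 2 NFAT motifs but neither an E-box nor AP1. Regions near NR5A2 (69 and 82), in ALDH1A2 (66 and 94) and at the promoter of TCTN2 (62 and 73) were also higher in the SW DMSO list. Most others were higher in the NS DMSO list, such as those in introns of ZFYVE21 (140 and 66) and PRMT1, an arginine methyltransferase (117 and 75), and upstream of SCRN2 (85 and 79).

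**Figure D5:**
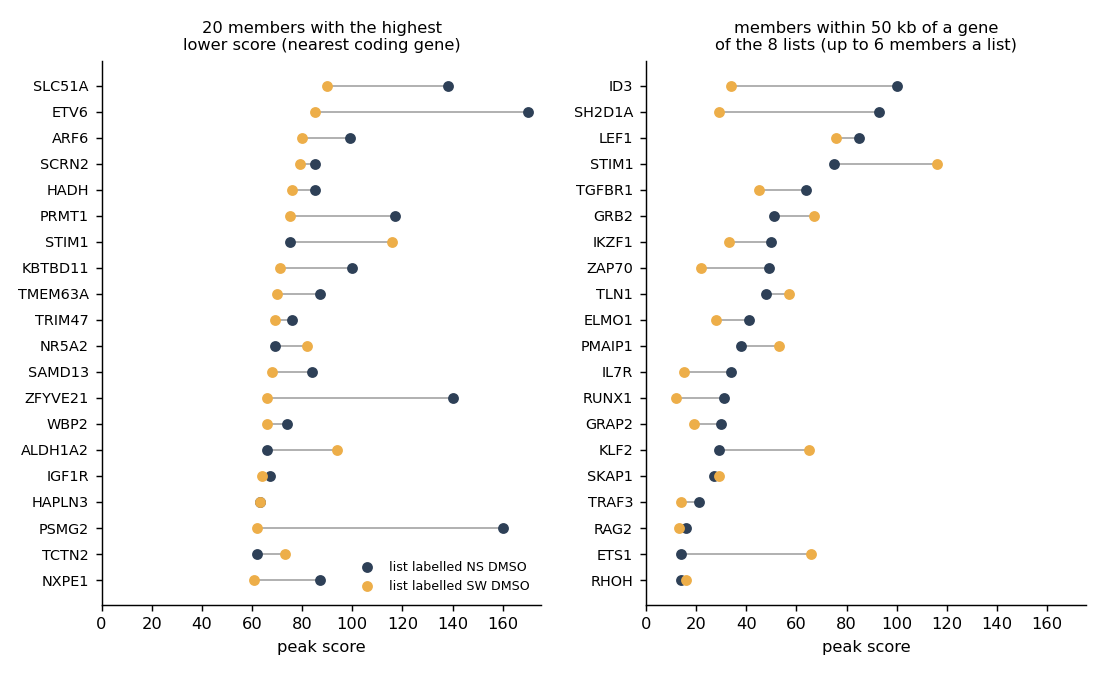
Scores (x) in the lists labelled NS DMSO (dark blue) and SW DMSO (yellow) of the 20 regions with the highest lower score, by nearest protein-coding gene (left), and of regions within 50 kb of a TSS of a gene in the 8 gene lists (right). On the right, ETS1, STIM1 and KLF2 have the widest gaps toward the SW DMSO list and ID3 and SH2D1A toward the NS DMSO list, while on the left STIM1 has the widest toward SW DMSO and PSMG2 (160 and 62), ETV6 and ZFYVE21 toward NS DMSO. HADH (left) and LEF1 (right) are the same region.

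Of 20136 protein-coding genes, 788 (3.91%) had 1 or more of the 514 regions within 50 kb of a TSS. Here and for the gene lists, a TSS of any annotated transcript of the gene counted. The nearest coding TSS was sought among protein-coding transcripts and can lie farther off. For the SKAP1 region these distances were 9.89 and 94.1 kb, and for the TGFBR1 region 3.80 and 22.7 kb. Of 37 genes of T cell receptor signalling, 7 had one (18.9%, 9.48–34.2), namely ZAP70, GRAP2, GRB2, SKAP1, PTPRC, SH2D1A and STIM1. These 37 genes have many accessible regions nearby, 356 in all, of which 7 (1.97%, 0.956–4.00) were among the 514, against 1.22% of the regions near all protein-coding genes. The region 176 bp before a TSS of SH2D1A, which encodes the adaptor SAP, scored 93 in the NS DMSO list and 29 in the SW DMSO list. Near ZAP70, the kinase recruited to the phosphorylated receptor, the scores were 49 and 22 (7.80 kb downstream of a TSS). Upstream of GRB2, an adaptor to RAS signalling, they were 51 and 67 (7.04 kb before the TSS). Regions within 50 kb of SKAP1 (27 and 29) and GRAP2 (30 and 19), which also encode adaptors, were weaker. The GRAP2 region lay 38.8 kb from a GRAP2 TSS, in an intron of FAM83F.

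Of 33 transcription factor genes of the T lineage and T cell leukaemia, 5 had a region within 50 kb (15.2%, 6.65–30.9), against 3.91% of all protein-coding genes. Of the 318 merged regions near them, 5 were among the 514 (1.57%, 0.673–3.63), against 1.22% near all protein-coding genes. The region in an intron of ETS1 had unequal scores, 14 in the NS DMSO list and 66 in the SW DMSO list, with fold enrichments of 3.28 and 5.06 (chr11:128444170-128444813). The opposite was seen 30.3 kb from ID3, an inhibitor of E proteins, in an intron of the neighbouring gene E2F2, where the scores were 100 and 34 (chr1:23855116-23855404). Between LEF1, an HMG-box factor of thymocytes, and HADH, a region with a RUNX motif and 2 CACCTG E-boxes scored 85 and 76 (chr4:108957450-108957716). Intronic regions of IKZF1 and RUNX1, 4.14 and 44.3 kb from a TSS, scored 50 and 33, and 31 and 12.

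Among 34 inducible transcription factors, KLF2 alone had a region within 50 kb (2.94%, 0.521–14.9), near the 3.91% of all protein-coding genes. KLF2 maintains quiescence and trafficking receptors in T cells. Its region lay 5.74 kb downstream of the TSS (chr19:16441252-16441538) and scored 29 in the NS DMSO list and 65 in the SW DMSO list. It is also the one named region of all with an AP1 motif, and it held 2.

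Of 35 cytokine, chemokine and receptor genes, 2 had a region within 50 kb (5.71%), IL7R (34 and 15) and TGFBR1 (64 and 45). Of 35 adhesion and cytoskeleton genes, 3 had one (8.57%): TLN1, encoding talin, which activates integrins (48 and 57), ELMO1 (41 and 28) and RHOH, a haematopoietic GTPase (14 and 16). Of 25 survival genes, 2 had one (8.00%), PMAIP1, encoding the BH3 protein NOXA (38 and 53), and TRAF3 (21 and 14). Of 24 receptor and co-receptor genes, RAG2, a recombinase of receptor gene assembly, had one (16 and 13), and of 21 genes of other blood and epithelial lineages none had one (0–15.5%). Some of these regions lay inside other genes. The TLN1 region was in an exon of GBA2, the RAG2 region in an intron of IFTAP and the TRAF3 region in an intron of CDC42BPB. They lay 9.78, 24.4 and 49.2 kb from a TSS of TLN1, RAG2 and TRAF3. For each of these lists, the interval includes the 3.91% of all protein-coding genes.

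Only 3 genes had 3 regions within 50 kb of a TSS. Those of MYO1D, a myosin, lay inside the gene and scored 74 and 56, 15 and 22, and 58 and 44 in the NS DMSO and SW DMSO lists. By protein-coding transcripts alone, the nearest TSS was that of CDK5R1 for the first (28.1 kb) and of MYO1D for the others (108 and 79.3 kb). FLRT1 and MACROD1 overlap and share the same 3 regions on chromosome 11, which scored 53 and 57, 45 and 50, and 58 and 44. Of the 13 regions in promoters, 9 lay before a protein-coding gene. The first 6 by lower score belonged to TCTN2, CHRNA3 (82 and 44), TIMP2 (61 and 44), GLIPR1 (47 and 36), NSUN5 (48 and 35) and CPED1 (65 and 31). All but TCTN2 scored higher in the NS DMSO list.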

How the data were processed

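FAIRE-seq of Jurkat cells was measured in 9 samples, of which the 4 with peak lists were used. Per the study's methods, the authors used CutAdapt for trimming, Bowtie2 for mapping (Hg19), Picard for duplicate removal and MACS2, with broad calling per sample against total input. Versions are not given in the sources used here. HTSeq is also named in the submitters' processing notes, but read counts were not used. For each peak, the deposited lists hold a position, a score, a ratio (fold enrichment over input) and −log10 values of p and q. Peaks with q above 0.05 (163 to 427 per list) were kept.

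Peaks of all lists that overlapped by 1 bp or touched were merged, and each region took the lists with a peak in it. Merging every peak gave 40731 regions, and only chromosomes 1 to 22, X and Y were kept. Mid-points were located with GENCODE release 44 on GRCh37, whose chromosome lengths match the lists. Of 21 motif families, each was sought by exact match on both strands in the central 300 bp. Some motifs overlap, since RUNX sites can run into E-boxes. Named regions were the 20 with the highest lower score, up to 6 per gene list within 50 kb of a TSS, those of genes with 3 or more, and 6 promoters. Printed sequences are the 6 of these, outside UTRs and chromosome 8, with most kinds of the marked motifs, then the highest lower score. The regions, gene lists and motifs were chosen with earlier results of these data known. All 244 list genes were found in the annotation. With 1 library per group there are no tests and no p-values.

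On simulated data, the lists of 3000 of 3000 regions and 1050 of 1050 planted motifs were recovered. Of positions shortly before annotated TSSs and outside any transcript, 533 of 533 were called promoter. That outcome follows from the definition of a promoter and checks the code only. Versions were samtools 1.23.1, pysam 0.24.0 and Python 3.11.15 with matplotlib 3.10.9, pandas 2.3.3, numpy 2.4.6 and scipy 1.17.1. Alternatives covered merging, thresholds, the number of peaks per list, windows, GC content and distances.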

Additional observations from a re-analysis of the deposited data

How the results depend on the processing

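No paired analysis was possible because each group has 1 library. The number of regions depended on how many peaks each list gave. It was 513 with touching peaks kept apart, 521 with q of 0.05 or less, 492 without rottlerin-labelled peaks within 1 kb, 439 with 50% reciprocal overlap and 506 on autosomes, but 224 when only the upper 50% of scores in a list counted and 1123 with the 18977 highest-scoring peaks of each list, of which 451 had the bounds of the 514 regions. Shares in those 1123 were 45.3% for RUNX, 33.5% for CACCTG, 22.4% for CAGCTG, 24.5% for CATCTG and 7.66% for AP1. With promoters placed first, promoters held 9.73% (26.0% of all merged regions) and introns and intergenic sequence 73.7% (61.4%). Windows of 200 and 500 bp gave 43.2 and 58.4% for RUNX, 31.3 and 50.0% for CACCTG, 18.9 and 30.7% for CAGCTG, 21.6 and 40.5% for CATCTG and 4.67 and 10.1% for AP1, because a longer window holds more sites. In regions with GC content of 40 to 50%, RUNX was found in 58.5% (41.3% of all merged regions) and CATCTG in 33.0% (26.3%), and in the 257 regions with the higher lower scores CACCTG was found in 42.4% and CATCTG in 34.2%. In 20 of 20 such comparisons of these 5 motifs (2 windows, GC content, and more than 1 kb from any TSS), the share stayed on the same side of that of all merged regions. For windows 1 kb away, chosen after seeing the data, shares were 20.1% (RUNX), 24.8% (CACCTG), 13.2% (CAGCTG) and 19.1% (CATCTG). For the other 16 motif families, 101 of 128 values stayed within their interval. That count does not cover the comparison with all merged regions, which changed away from TSSs for CCGGAA, SP1, GATA, NFAT and TCF/LEF, among others. With GC content of 40 to 50%, CTCF (9.91% against 12.0%), TCF/LEF (6.13% against 8.38%) and CCGGAA (5.19% against 4.68%) changed sides. Medians of score and fold enrichment were identical with the widest peak of each list. Within 10 kb of a TSS, the share of list genes with a region was 3.03% for T lineage factors and 0 for receptor and survival genes, against 1.35% of all protein-coding genes. As a share of merged regions near the genes, also chosen after seeing the data, it was 1.97% for receptor signalling, 1.57% for T lineage factors, 1.32% for survival, 1.09% for adhesion, 0.976% for cytokine and 0.431% for inducible factor genes, against 1.22% of all. Depth is unknown and there are no replicates, so a peak missing from a list cannot be told apart from a library that was less deep.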
